A study of Mus musculus with 8 samples.

Results

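Cadherins and protocadherins are cell-surface proteins that join neighbouring cells through repeated calcium-binding domains. Their genes were taken by symbol from the platform annotation (numbered Cdh and Pcdh genes, the clustered Pcdha, Pcdhb and Pcdhg genes, and Celsr1 to Celsr3), with the probe set of the highest mean standing for each gene. This gave 58 of the 18193 genes measured with a probe set of their own: 3 seven-pass cadherins, 5 classical cadherins of type I, 11 of type II, 5 other cadherins, 11 non-clustered protocadherins and 23 clustered ones. The clustered group held 22 Pcdhb genes and Pcdhgc4, while the Pcdha genes were named only by probe sets that list several genes. The arrays compared GFP-positive cells sorted from the cortex with GFP-positive cells sorted from the lungs of mouse embryos at E13.5.

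All embryos came from homozygous Tie2-GFP mice, whose green fluorescent protein is made under the promoter of Tek, an endothelial receptor gene. That promoter is also known to act in some blood cells, and the labels give the sorted cells both as endothelial and as GFP-positive cells. The cortex had been freed of meninges and choroid plexus before collagenase digestion and sorting. Each tissue was measured on 4 arrays, numbered 72, 22, 19 and 18, and each array held the pooled material of a litter of 10 to 13 embryos. Array values are given below in that order of numbers. The values were log2 intensities after RMA, which corrects background, normalizes the arrays to one distribution and summarises the probes of a set. The question was which genes distinguish vessels of the developing brain from those of another organ.

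In endothelium, Cdh5 (VE-cadherin) forms the adherens junction, and its cytoplasmic tail binds catenins that link it to actin. Cdh2 (N-cadherin) lies outside these junctions in endothelium and is also a main cadherin of neural progenitors. Protocadherins and the seven-pass Celsr proteins are known chiefly from the nervous system, where they act in sorting, wiring and tissue polarity. Pcdh12 (VE-cadherin-2) is a protocadherin known from endothelial cells.

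Promoters are shown for the 3 members with the largest rises in cortex and for Pcdh17, the member with the largest fall. Cdh26, the other member that fell, is not shown. They are RefSeq windows on GRCm38.p6, from 250 bases before to 50 bases after the annotated start, read 5′ to 3′ on the gene's strand. For a gene with several annotated starts the most upstream window was taken, which need not be the start used in these cells. Capitals mark matches, on either strand, to the GC box GGGCGG, the E-boxes CAGCTG and CAGATG, the ETS core CGGAAG, the TATA box TATAAA, the SOX core ACAAAG and the REST site fragment TTCAGCACC, and none of these matches overlapped another.
Celsr3, chr9:108825795-108826094, plus strand: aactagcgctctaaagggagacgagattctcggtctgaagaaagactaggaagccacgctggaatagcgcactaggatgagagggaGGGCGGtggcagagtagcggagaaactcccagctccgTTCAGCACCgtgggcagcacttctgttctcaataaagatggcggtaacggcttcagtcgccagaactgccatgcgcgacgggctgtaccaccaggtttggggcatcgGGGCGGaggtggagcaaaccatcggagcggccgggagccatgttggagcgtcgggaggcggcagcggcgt
Celsr2, chr3:108415530-108415829, minus strand: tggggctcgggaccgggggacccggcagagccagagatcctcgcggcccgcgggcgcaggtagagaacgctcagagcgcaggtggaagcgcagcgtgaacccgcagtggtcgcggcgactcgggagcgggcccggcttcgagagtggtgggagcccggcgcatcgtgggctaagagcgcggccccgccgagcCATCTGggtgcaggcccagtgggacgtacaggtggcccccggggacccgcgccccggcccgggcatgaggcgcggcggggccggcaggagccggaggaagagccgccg
Pcdh8, chr14:79771263-79771562, minus strand: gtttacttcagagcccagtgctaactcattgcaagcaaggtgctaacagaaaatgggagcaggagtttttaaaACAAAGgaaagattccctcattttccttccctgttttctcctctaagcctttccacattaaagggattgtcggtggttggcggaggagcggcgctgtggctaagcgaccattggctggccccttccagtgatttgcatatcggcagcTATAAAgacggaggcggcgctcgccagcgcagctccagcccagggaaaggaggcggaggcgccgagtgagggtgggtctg
Pcdh17, chr14:84443313-84443612, plus strand: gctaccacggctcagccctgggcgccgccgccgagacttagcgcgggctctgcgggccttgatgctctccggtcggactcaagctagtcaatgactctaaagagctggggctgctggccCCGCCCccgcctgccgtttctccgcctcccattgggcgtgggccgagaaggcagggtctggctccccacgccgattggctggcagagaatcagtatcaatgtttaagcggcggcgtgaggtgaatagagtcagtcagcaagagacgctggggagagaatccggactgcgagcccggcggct
Celsr3 held 25 CpG pairs, Celsr2 40, Pcdh8 14 and Pcdh17 26, where the median over 27025 mouse promoter windows was 7. The table of promoters matched 22 of the 58 members, and their median was 16. Of these 7 rose in cortex and had a median of 18 CpG pairs. The 2 that fell were Pcdh17 with 26 pairs and Cdh26 with 4, and the 13 not called had a median of 11. The REST fragment of the Celsr3 window occurs in 0.37% of all windows, and the GC box of Celsr3 and Pcdh17 in 35.9%. Among the 22 member windows, 2 held the REST fragment, those of Celsr3 and Cdh9. A TATA box was found in the Pcdh8 window, as in 14.2% of all windows.

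Groups follow the titles and tissue labels. For 4 arrays (19 and 18 of each tissue) the free-text description gives the opposite tissue. Array medians lay between 6.59 and 6.72. All 20 neural markers (Tubb3, Sox2 and others) rose in cortex, and their mean ranged from 11.20 to 11.72 on cortex arrays and from 5.89 to 6.30 on lung arrays. The mean of 25 pan-endothelial markers was 9.98, 11.33, 11.47 and 9.61 on the cortex arrays, against 11.72, 11.78, 11.89 and 11.40 on the lung arrays. Tek, whose promoter drove the GFP used for sorting, lay between 10.73 and 12.41 in cortex and between 12.59 and 13.25 in lung. The pan-endothelial markers lay above the array median on every array, except Erg at 6.52 on cortex 72, where the median was 6.67. Markers of fibroblasts and mesenchyme (12 genes) averaged 6.14 to 6.63 on cortex arrays and 7.64 to 9.79 on lung arrays. Macrophage and microglia markers (11 genes, 5 of them higher in cortex) averaged 5.91 to 9.09 on cortex arrays and 5.21 to 6.31 on lung arrays. Lung 18 stood apart in RNA quality, since its actin control probe sets differed by 0.99 between the 3′ and 5′ ends, where the other 7 arrays lay between 0.36 and 0.55. A lower level of a gene in sorted cells can mean fewer cells that express it or less RNA per cell, and these cannot be told apart. The part of these neural, endothelial, mesenchymal and macrophage transcripts in the results below was not tested.

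Cortex cells had higher levels of 10 cadherins and protocadherins than lung cells and lower levels of 2, while 46 were not called (limma, Benjamini-Hochberg adjusted p under 0.05 over all genes). The 10 that rose were the 3 seven-pass cadherins, Cdh2, Cdh4, Cdh6, Pcdh8, Pcdh9, Pcdh10 and Pcdh19. Pcdh17 and Cdh26 were the members that fell. The 12 called members were 20.7% of the group, where 18.1% of all genes were called, so the share called in either direction was close to the background. By direction 10 of 58 members were higher in cortex and 2 lower, where 1888 (10.4%) and 1403 (7.71%) of 18193 genes were. Whether the members differ from all genes in direction was not tested. All 12 called members were at least 2-fold apart. Of the 3291 called genes of the whole array, 1435 were at least 2-fold higher in cortex and 901 at least 2-fold lower. These were 7.89% and 4.95% of all genes. At an unadjusted p under 0.05 the counts were 18 of 58 members (31.0%) and 31.3% of all genes. The median difference of the members was -0.08, against -0.09 over all genes tested. For 15 of 58 members no cortex array fell in the lung range, beside 24.5% of all genes. On all 8 arrays 24 of 58 members lay below the array's median, 14 of them clustered protocadherins, beside 5375 of all 18193 genes. Values at that level carry no detection call.

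**Figure D1:**
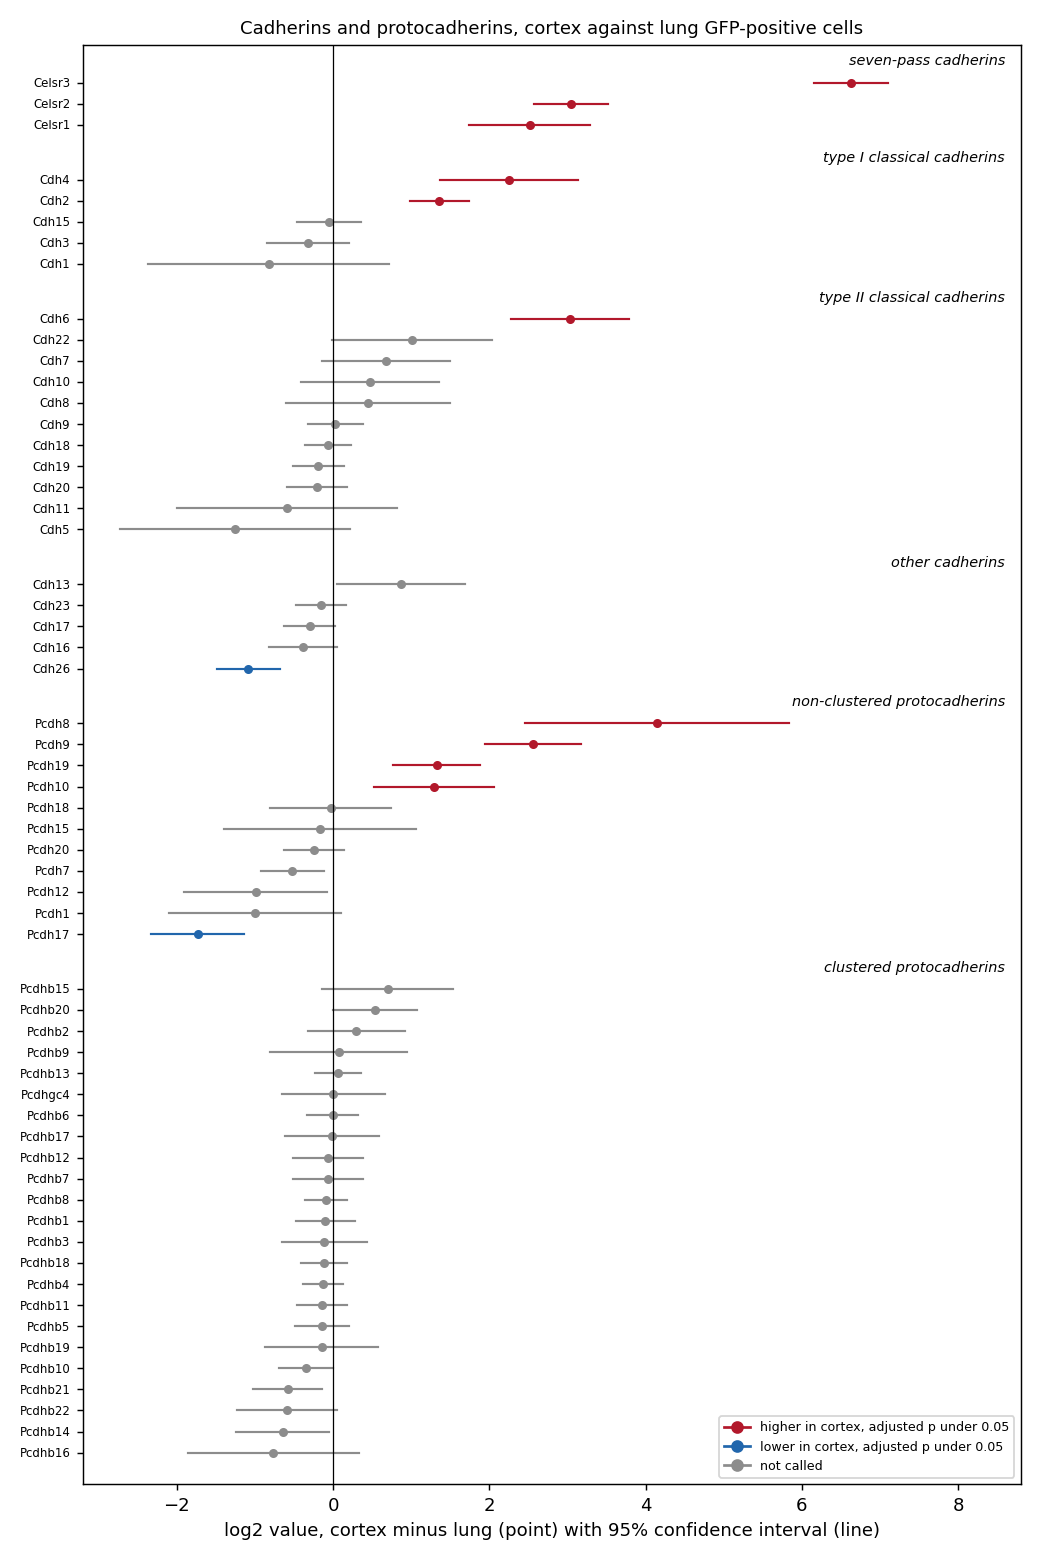
Difference of the log2 value, cortex minus lung, for each of the 58 members by group, as a point with its 95% confidence interval from limma. The 3 seven-pass cadherins lie furthest right as a group, the 23 clustered protocadherins gather near 0, and Pcdh17 and Cdh26 are the called members left of 0.

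All 3 seven-pass cadherins rose in cortex, beside 10.4% of all genes. Seven-pass cadherins, related to Drosophila Flamingo, join a cadherin ectodomain to a receptor that crosses the membrane several times and act in planar cell polarity. Celsr3, which is needed for axon tracts in the mouse brain, lay at 11.12, 10.66, 10.92 and 11.42 on the cortex arrays, against 4.56, 4.55, 4.52 and 3.97 on the lung arrays. Every cortex array was far above every lung array, and the lung arrays all lay below their medians. The difference of 6.63 ± 0.21 log2 units (SE), or 99.2-fold, was the largest of the family (adjusted p = 7.05e-07).

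Celsr2, known from neural development and ependymal cilia, lay at 11.50, 11.57, 11.16 and 11.73 in cortex, against 8.91, 8.31, 8.48 and 8.08 in lung. The arrays did not overlap, and the difference was 8.27-fold (3.05 ± 0.21 log2 units, adjusted p = 2.85e-05). A second, dimmer probe set of Celsr2 also rose, by 1.96 log2 units. Celsr1, the member best known from epithelial polarity and neural tube closure, lay at 11.40, 11.52, 10.49 and 11.06 in cortex, against 9.17, 7.88, 9.05 and 8.30 in lung. The tissues were again separate, at 5.73-fold (2.52 ± 0.34 log2 units, adjusted p = 0.00118). Unlike Celsr3, both Celsr1 and Celsr2 stood above the array median on every lung array.

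Of 10 measured polarity partners of the Celsr proteins, 4 rose in cortex and 1 fell, beside 10.4% and 7.71% of all genes. The receptor Fzd3, which acts with Celsr3 in axon guidance, was 7.01-fold higher in cortex (adjusted p = 0.000308), with 9.85 ± 0.46 on cortex arrays and 7.04 ± 0.47 on lung arrays (SD, n = 4 each). Ankrd6, the Diversin scaffold, was 4.10-fold higher (adjusted p = 0.00683). The cytoplasmic polarity protein Prickle1 was 2.81-fold lower in cortex (adjusted p = 0.00787), with 9.62 ± 0.60 on cortex arrays and 11.11 ± 0.21 on lung arrays. The median of this list was 0.33, against -0.09 over all genes.

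Classical cadherins of type I, which carry the adherens junctions of epithelia and neural tissue, rose in part. Of their 5 members, 2 were higher in cortex (40%, beside 10.4% of all genes) and 3 were not called. Cdh2 lay at 12.21, 12.44, 12.73 and 12.07 in cortex, against 10.98, 10.89, 11.12 and 11.01 in lung. Its level was well above the array median in both tissues and differed 2.57-fold, with no overlap (1.36 ± 0.17 log2 units, adjusted p = 0.000692). On the cortex arrays Cdh2 was highest on 19 and 22, the arrays with the higher pan-endothelial means and the lower neural means. A second probe set of Cdh2 rose by 1.57 log2 units.

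Cdh4 (R-cadherin), a cadherin of retina, brain and smooth muscle, lay at 10.64, 9.68, 9.26 and 10.26 in cortex, against 7.14, 8.57, 7.30 and 7.84 in lung. Cortex was higher by 4.76-fold (2.25 ± 0.39 log2 units, adjusted p = 0.0044), and lung 22 came closest to the lowest cortex array. Of its 2 other probe sets, 1 rose by 1.89 log2 units and the dimmest differed by -0.17. In contrast to Cdh2, the values of Cdh4 were highest on cortex 72 and 18, the arrays with the higher neural means. The same held for Celsr3, Cdh6, Pcdh8, Pcdh9, Pcdh10 and Pcdh19, but not for Celsr1 or Celsr2.

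Cdh1 (E-cadherin), the junctional cadherin of epithelia, lay at 4.80, 6.21, 4.89 and 5.05 in cortex, against 8.15, 4.97, 5.95 and 5.17 in lung. One array, lung 72, stood above the rest, and its epithelial markers (12 genes, mean 7.67) and Epcam (8.27) were also the highest of the 8 arrays. The Cdh1 difference was -0.13 log2 units without lung 72 and -0.82 with it, and it was not called either way (adjusted p = 0.848 and 0.44). Cdh3 (P-cadherin) lay below the median on every array, at 5.87, 5.47, 6.04 and 5.90 in cortex, against 6.42, 5.75, 5.82 and 6.57 in lung, and was not called (adjusted p = 0.374). Cdh15 (M-cadherin of muscle) averaged 6.81 in cortex and 6.86 in lung.

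**Figure D2:**
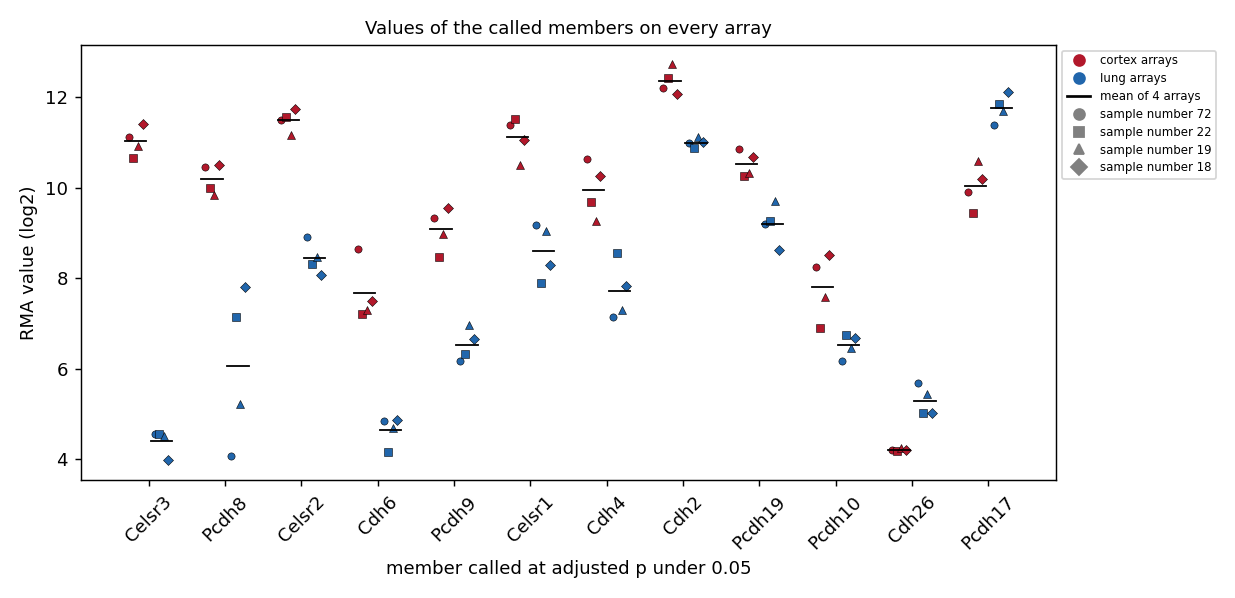
RMA values (log2) of the 12 called members on each of the 8 arrays, cortex left of lung for each gene, with a line at the mean of 4 arrays and a symbol for each sample number. Within every gene the cortex and lung points are separate, and Pcdh8 has the widest spread among lung arrays, from 4.08 to 7.80.

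Type II classical cadherins, the subfamily of Cdh5, had 1 of 11 members higher in cortex (9.09%), none lower and 10 not called. Over all genes 10.4% were higher and 7.71% lower. The median of the type II group was 0.03. Cdh5 lay at 7.86, 9.31, 9.28 and 7.10 in cortex, against 10.52, 9.78, 10.16 and 8.13 in lung. The tissues overlapped, because lung 18 fell below the cortex arrays 22 and 19, and the difference of -1.26 log2 units had a 95% confidence interval of -2.73 to 0.21 (adjusted p = 0.225). In cortex the level of Cdh5 followed the pan-endothelial mean, high on 22 and 19 and low on 72 and 18. In lung its lowest value was on lung 18, the array with the widest 3′ to 5′ gap, where the pan-endothelial mean was only slightly lower. Of the 25 pan-endothelial markers, 13 had their lowest lung value on lung 18 and 7 their highest. Without lung 18 the Cdh5 difference was -1.76 log2 units and still not called (adjusted p = 0.0749). Its second probe set differed by -1.45 log2 units.

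Cdh6 (K-cadherin), known from kidney and from boundaries in the developing forebrain, was the type II member that rose. It lay at 8.65, 7.21, 7.31 and 7.50 in cortex, against 4.83, 4.15, 4.69 and 4.86 in lung, where every array was below its median. The difference was 8.19-fold (3.03 ± 0.33 log2 units, adjusted p = 0.000366), but a second, dim probe set of Cdh6 differed by -0.04 log2 units and was not called.

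Cdh11 (OB-cadherin), a cadherin of mesenchyme, lay at 9.99, 9.44, 9.58 and 9.23 in cortex, against 11.42, 10.07, 10.91 and 8.20 in lung. Lung 18 was below all cortex arrays and the other 3 lung arrays were above them all. The difference with all arrays was -0.59 ± 0.62 log2 units (adjusted p = 0.545), and without lung 18 it was -1.24 log2 units and passed (adjusted p = 0.0425). The fibroblast and mesenchyme markers were also lowest on lung 18 among the lung arrays, at 7.64, and highest on lung 72, at 9.79.

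Probe sets disagreed on the call of Cdh8 and Cdh7. Cdh8 averaged 7.25 in cortex and 6.80 in lung and was not called, whereas another of its probe sets rose by 1.94 log2 units (limma over all 45037 non-control probe sets, of which 12.2% were called, adjusted p = 0.00192) and the remaining one differed by -0.34. Cdh7 was likewise not called at 6.83 in cortex and 6.15 in lung, and both of its other probe sets rose, by 1.97 and 1.54 log2 units. For Cdh10 the brightest probe set differed by 0.47 log2 units and the others by 1.72, 1.66 and 0.06, none of them called. Cdh22 lay at 8.21, 6.33, 6.04 and 7.44 in cortex, against 5.90, 6.16, 5.64 and 6.27 in lung, and did not pass (adjusted p = 0.164). Its 2 higher cortex values were those of arrays 72 and 18. Cdh9, Cdh18, Cdh19 and Cdh20 lay below the array median throughout.

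**Figure D3:**
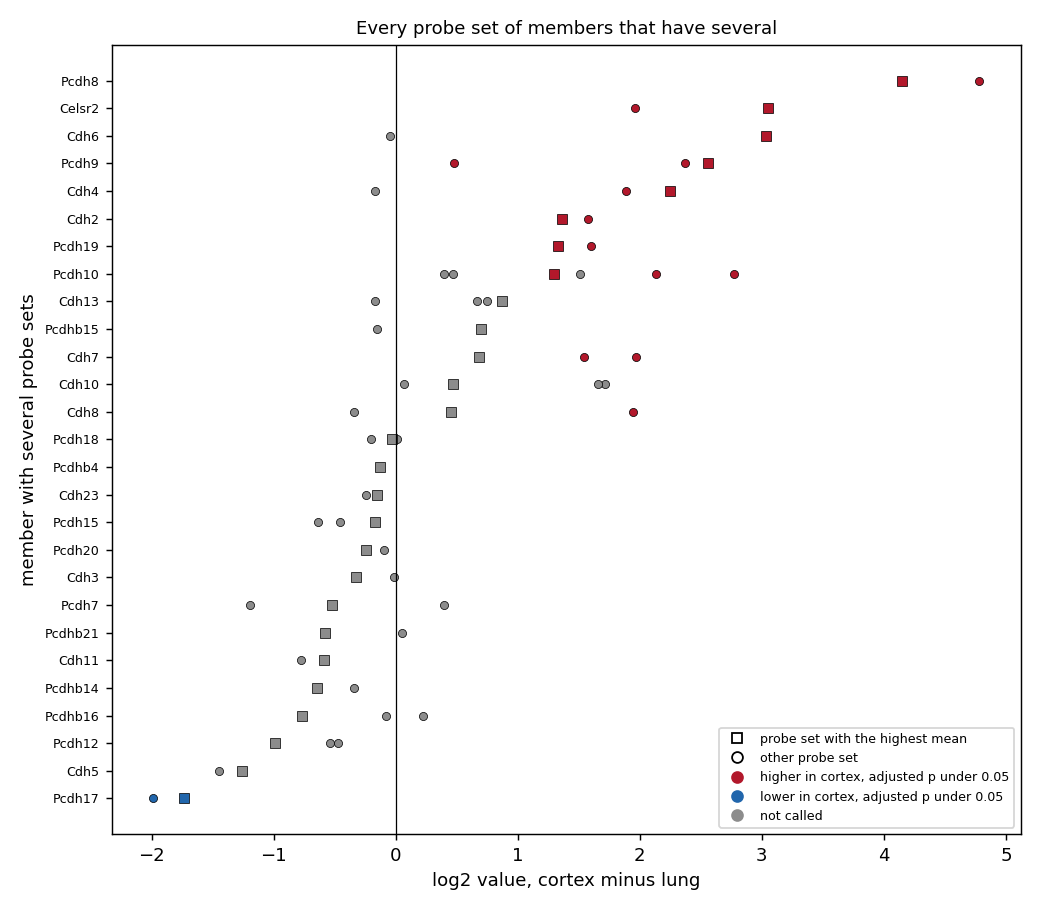
Cortex minus lung log2 difference of every single-gene probe set for the 27 members that have several, squares for the probe set with the highest mean and circles for the others. Colour marks calls over all probe sets. Cdh7 and Cdh8 have called probe sets beside an uncalled one, and no member has called probe sets in opposite directions.

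Among the other cadherins, 1 of 5 was called (20%, beside 18.1% of all genes). Cdh26, a cadherin of epithelia, lay at 4.19, 4.18, 4.25 and 4.19 in cortex, against 5.68, 5.02, 5.44 and 5.01 in lung. These values were below the array median on all 8 arrays, and the fall was 2.12-fold (-1.08 ± 0.18 log2 units, adjusted p = 0.0032). Cdh13 (T-cadherin), which is anchored by a lipid and is known from vascular cells and neurons, lay at 10.29, 9.47, 9.47 and 9.79 in cortex, against 9.14, 8.87, 9.63 and 7.91 in lung. Lung 19 reached into the cortex range, and the difference of 0.87 ± 0.36 log2 units was not called (adjusted p = 0.139). Cdh16, Cdh17 and Cdh23 were below the median on every array.

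Non-clustered protocadherins moved in both directions, with 4 of 11 higher in cortex, 1 lower and 6 not called. The called ones were 45.5% of the group, beside 18.1% of all genes. Pcdh8 (Arcadlin in rat), a protocadherin of synapses and of the early mesoderm, lay at 10.47, 10.00, 9.84 and 10.51 in cortex, against 4.08, 7.14, 5.21 and 7.80 in lung. Lung 22 and 18 were well above lung 72 and 19 but below all cortex arrays, and the difference was 17.7-fold (4.15 ± 0.74 log2 units, adjusted p = 0.00534). Its other probe set had no such spread in lung, where it lay between 3.57 and 3.92, and it rose by 4.78 log2 units.

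Pcdh9, a protocadherin of cortical and hippocampal neurons, lay at 9.34, 8.46, 8.98 and 9.55 in cortex, against 6.17, 6.32, 6.96 and 6.66 in lung. It was 5.88-fold higher in cortex with no overlap (2.56 ± 0.27 log2 units, adjusted p = 0.000314). Pcdh19, the X-linked gene of a human epilepsy, lay at 10.86, 10.26, 10.32 and 10.68 in cortex, against 9.21, 9.27, 9.71 and 8.63 in lung. All 3 of its probe sets rose, the brightest by 2.51-fold (1.33 ± 0.25 log2 units, adjusted p = 0.0064). The largest rise, of another probe set, was 1.60 log2 units.

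Pcdh10 (OL-protocadherin), which acts in growth of forebrain axons, lay at 8.24, 6.91, 7.58 and 8.51 in cortex, against 6.18, 6.74, 6.45 and 6.68 in lung. Cortex 22 lay just above lung 22, and the 2.45-fold difference passed narrowly (1.30 ± 0.34 log2 units, adjusted p = 0.0293). Leaving out cortex 72, cortex 18 or any single lung array ended the call, at 1.06 to 1.37 log2 units. Of its other 5 probe sets 2 were called, at 2.77 and 2.13 log2 units.

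Pcdh17 fell in cortex. It is known from synapses of the basal ganglia. It lay at 9.90, 9.45, 10.58 and 10.20 in cortex, against 11.38, 11.86, 11.70 and 12.12 in lung. The tissues did not overlap, and the fall was 3.32-fold (-1.73 ± 0.26 log2 units, adjusted p = 0.00226). Both probe sets fell, the second by -1.98 log2 units. In cortex both probe sets were highest on 19, while the lowest array was 22 for the first and 18 for the second.

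Pcdh12 and Pcdh1 had lower means in cortex without a call. Pcdh12 lay at 10.63, 11.76, 12.09 and 10.15 in cortex, against 12.04, 12.14, 12.07 and 12.34 in lung. The lung arrays lay close together, lung 18 included, while the cortex arrays spread as the pan-endothelial mean did, and cortex 19 reached the lung range (-0.99 ± 0.40 log2 units, adjusted p = 0.131). Without cortex 19 the difference was -1.30 log2 units and passed (adjusted p = 0.0438). Pcdh1, a protocadherin of airway epithelium and endothelium, lay at 6.64, 8.04, 7.75 and 5.64 in cortex, against 8.31, 8.11, 7.97 and 7.70 in lung. Its cortex arrays had the same order of high (22 and 19) and low (72 and 18), and the difference was not called (95% confidence interval -2.11 to 0.10 log2 units, adjusted p = 0.199).

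Pcdh7, a protocadherin of retinal and other neurons, lay at 7.41, 7.51, 6.82 and 7.31 in cortex, against 7.80, 7.58, 7.87 and 7.88 in lung. The arrays did not overlap, but the difference of -0.52 ± 0.18 log2 units missed the threshold (adjusted p = 0.0796). It passed in 2 of 15 alternatives, with median-centred arrays (adjusted p = 0.0496) and with array weights (adjusted p = 0.038). Its other probe sets differed by 0.40 and -1.20 log2 units, neither of them called. Pcdh18 lay at 7.15, 7.06, 6.77 and 7.11 in cortex, against 7.96, 6.16, 6.88 and 7.21 in lung, and differed by -0.03 log2 units with a 95% confidence interval of -0.80 to 0.74 (adjusted p = 0.961). Pcdh15, a tip-link protein of hair cells, averaged 6.08 in cortex and 6.25 in lung, and Pcdh20 lay below the median on all arrays.

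**Figure D4:**
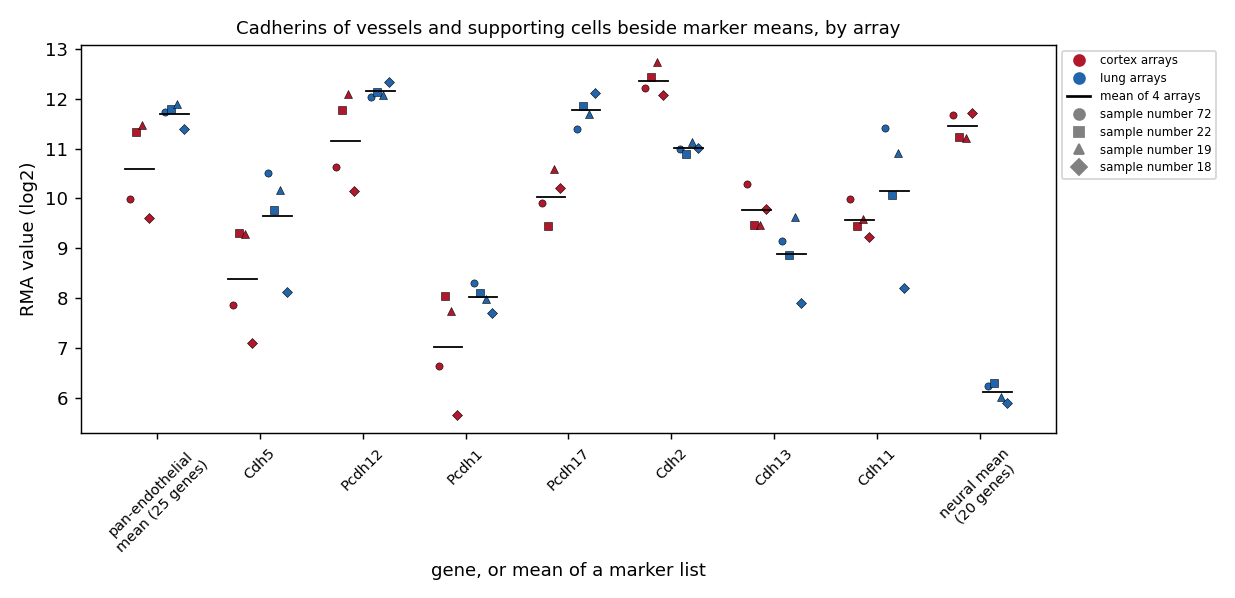
RMA values (log2) of 7 members on each array, cortex left of lung, beside the mean of 25 pan-endothelial and of 20 neural markers, with a line at the mean of 4 arrays. Cdh5, Pcdh12 and Pcdh1 are low on cortex 72 and 18 like the pan-endothelial mean, whereas Cdh2 is higher on every cortex array than on any lung array.

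None of the 23 clustered protocadherins was called by limma, beside 18.1% of all genes. An unadjusted p under 0.05 was found for 3 of them (13%), beside 31.3% of all genes. The clustered protocadherins lie in tandem on chromosome 18, and the isoforms a neuron carries act in the recognition of its own branches. Their differences ran from -0.76 to 0.70 log2 units, with a median of -0.10. The arrays did not overlap for 2 of the 23, beside 24.5% of all genes. On all 8 arrays 14 of the 23 lay below the array median, beside 5375 of all 18193 genes. The largest difference was that of Pcdhb16, at 6.96, 7.28, 8.89 and 7.78 in cortex, against 7.67, 9.38, 8.21 and 8.70 in lung (adjusted p = 0.316). Its arrays overlapped, with cortex 19 above 3 lung arrays. Pcdhb20 averaged 8.58 ± 0.23 in cortex and 8.05 ± 0.45 in lung, and Pcdhb21 8.32 ± 0.22 in cortex and 8.90 ± 0.31 in lung, both without a call (adjusted p = 0.159 and 0.0725). Pcdhgc4 was the single gene of the gamma cluster with a probe set of its own. It averaged 8.36 ± 0.14 in cortex and 8.35 ± 0.62 in lung (SD, n = 4 each). Probe sets that name several gamma genes were not looked at. The Pcdhb genes are closely related in sequence, so signal of one may reach the probe set of another.

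Cdh5 is the cadherin by which endothelial content is commonly judged, and the members were also set against it, with each array shifted to the same Cdh5 value. This adds 1.26 log2 units to every difference, and the median of all genes then lay at 1.17. Relative to Cdh5, 10 members were higher in cortex and 0 lower, where 9.22% of all genes were higher and 0.335% lower. The 10 were the same genes that rose without this step. Pcdh17 (-0.47 log2 units, adjusted p = 0.605) and Cdh26 (0.17 log2 units, adjusted p = 0.85) were no longer called. Pcdh12 differed from Cdh5 by 0.27 log2 units (adjusted p = 0.771) and Pcdh1 by 0.26 (adjusted p = 0.78), each with an SE of 0.81. Limma gave all genes that same SE here, so calls relative to Cdh5 depend on the size of the difference alone. Without lung 18 the count of members higher in cortex was 37, and without cortex 72 or 18 or lung 72, 22 or 19 it was 7, the lost calls being those of Cdh2, Pcdh19 and Pcdh10. With the pan-endothelial mean as the reference, all genes shifted to a median of 1.01 and 17 members were called higher and 0 lower, beside 21.7% and 0.852% of all genes, Cdh13 (1.97 log2 units, adjusted p = 0.00593) among them.

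Catenins and other partners of the adherens junction were called in 6 of 24 cases, 4 higher in cortex and 2 lower, with a median of -0.18. That is 25% of the list, beside 18.1% of all genes called, 10.4% higher and 7.71% lower. The 4 that rose were Ctnna2, Ctnnd2, Arvcf and Cask. Ctnna2 (alpha-N-catenin) was 29.4-fold higher, with 9.84 ± 0.47 on cortex arrays and 4.97 ± 0.66 on lung arrays (adjusted p = 4.13e-05). Ctnnd2 (delta-catenin of neurons) was 12.7-fold higher, with 11.63 ± 0.27 on cortex arrays and 7.96 ± 0.27 on lung arrays (adjusted p = 9.37e-06). Arvcf, a catenin of the p120 family, was 4.39-fold higher (adjusted p = 0.000151), and the scaffold kinase Cask 2.24-fold higher (adjusted p = 0.0114). Ctnnb1, Ctnna1 and Ctnnd1 were not called. Ctnnb1 (beta-catenin) averaged 13.87 ± 0.15 in cortex and 13.74 ± 0.11 in lung, Ctnna1 (alpha-E-catenin) 12.43 ± 0.22 in cortex and 12.87 ± 0.10 in lung, and Ctnnd1 (p120) 10.16 ± 0.61 in cortex and 10.30 ± 1.05 in lung (adjusted p = 0.538, 0.0697 and 0.875). Ctnna1 passed in 3 of 15 alternatives, with median-centred arrays, a trended variance model or array weights (lowest adjusted p = 0.0248). The phosphatase Ptprb (VE-PTP), which binds VE-cadherin, averaged 11.35 ± 0.90 in cortex and 12.51 ± 0.31 in lung and was not called (adjusted p = 0.0905). The adhesion protein Nectin2 fell 2.53-fold (adjusted p = 0.00786) and the catenin relative Ctnnal1 1.78-fold (adjusted p = 0.039), but Ctnnal1 lost its call in 8 of 15 alternatives. These left out cortex 22, cortex 19, lung 22, lung 19 or lung 18, used the sample number as a block, or took the mean or the most variable of its probe sets (adjusted p up to 0.344).

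Of 6 measured Fat and Dachsous genes, giant cadherins outside the symbol rule with the kinase gene Fjx1, 3 rose in cortex and none fell, beside 10.4% and 7.71% of all genes, with a median of 0.48. Fat3, known from retinal and other neurons, was 8.28-fold higher (8.70 ± 0.43 on cortex arrays and 5.65 ± 1.30 on lung arrays, adjusted p = 0.00753). Fjx1, the relative of the Drosophila kinase Four-jointed, was 4.13-fold higher (adjusted p = 0.00218). The list of protocadherin partners held subunits of the WAVE complex, which builds branched actin, the kinases Ptk2b, Fyn and Taok2, and Ctcf, Rad21 and Smchd1, which act on chromatin and on the choice of clustered protocadherins. Of its 12 measured genes 3 rose in cortex (25%, beside 10.4% of all genes) and none fell, with a median of 0.08. Without cortex 19 the count was 5. The largest rises were those of Cyfip2 (22.5-fold, adjusted p = 0.000314) and Wasf1 (4.35-fold, adjusted p = 0.00038), the WAVE subunits known best from neurons.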

How the data were processed

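Values of GFP-positive cortex and lung cells came from Affymetrix Mouse Genome 430 2.0 arrays. Per the labels' protocols, 15 to 30 ng of RNA were linearly amplified. The authors deposited log2 values for probe sets, and RMA and affy are named in the submitters' processing notes without a version. All 8 columns were used, and 0 were left out. Of 45101 probe sets, 64 controls were left out, 34945 named 1 gene, 932 several and 9160 none here. Each gene took its single-gene probe set with the highest mean, with no filter on dim values. All 58 members were found by gene number in RefSeq.

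Cortex minus lung was fitted with limma 3.58.1 (R 4.3.3, lmFit and eBayes) over 18193 genes, without a block, with two-sided p-values adjusted by Benjamini-Hochberg and calls under 0.05. The fit was tested on simulated data with independent noise for each gene. That test does not cover variation shared by the genes of an array, such as purity or RNA quality. SD and n are over arrays, intervals are at 95%, and the 4 arrays per tissue limit the precision. Quantile normalization makes differences relative to the rest of the array. P-values measure the spread between arrays of pooled litters, which also holds differences in purity and RNA quality. Relative to Cdh5, where all genes had the same SE, they do not measure a gene's own spread.

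Members, lists, tests and alternatives were chosen with earlier results of these data known. Array values were given by rule for Cdh5, for called members at least 2-fold apart, for a fixed set of 14 members and for the largest difference of a group with no call, and partners for the largest called differences in each direction and 6 fixed genes. Others named, such as Arvcf, Cask, Cdh7, Cdh8, Cdh10 and Cdh22, were chosen after their values were seen. The alternatives were a block on the sample number, each array left out, median centring, a filter on dim genes, other probe set choices, another variance model, array weights and other scaling references. The labels do not say whether a shared sample number marks a shared litter, and same-numbered arrays were not treated as pairs. Deviations from the tissue means correlated at 0.33, -0.16, 0.01 and 0.31 for numbers 72, 22, 19 and 18. These values cannot decide whether litters were shared, since purity and RNA quality also differ between arrays.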

Additional observations from a re-analysis of the deposited data

Results flagged for a closer look

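In 2 of 44 sets of 4 arrays (22 members in each tissue), 1 array lay far from the other 3 by Dixon's criterion, where chance gives about 1 in 20. Celsr3, on the lung arrays, was at 3.97 on lung 18 and between 4.52 and 4.56 on the others, a gap too small to touch its difference from cortex. Cdh26, on the cortex arrays, was at 4.25 on cortex 19 and between 4.18 and 4.19 on the others, all close to the low end of the scale.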

How the results depend on the processing

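The count of called members was 11 to 17 over the alternatives, against 12, and between tissues the 12 called members kept their direction in every alternative that tested them. Of these only Pcdh10 lost its call, in 7 of 15 alternatives. The count lower in cortex was 4 with arrays centred on their medians, 1 with genes of a mean of at least 6 only, which left Cdh26 out, and 5 with array weights. Leaving out 1 array gave 11 to 13 members called, 9 to 10 higher and 2 to 3 lower. With the sample number as a replicate block 11 members were called, and 21 relative to Cdh5, all higher in cortex. Relative to Cdh5 the count, all of it higher in cortex, was 26 with array weights and 17 with the pan-endothelial mean, and 7 to 37 without 1 array. An alternative chosen after seeing the data, over all probe sets, gave 14 members with a called probe set. Among protocadherin partners the count of 3 became 5 with the mean of all probe sets and ranged from 3 to 5 without 1 array. The sign changed, with no call on either side, for Ctnnd1 (0.08 without cortex 72, 0.18 without lung 72, 0.09 without lung 19 and 0.015 with the most variable probe set, over -0.59 to 0.18 without 1 array) and Pcdh18 (0.05 without cortex 19, 0.27 without lung 72 and 0.02 without lung 18, over -0.33 to 0.27). Relative to Cdh5 it changed for Pcdh17 (0.03 without cortex 22 and 0.15 without lung 18, over -0.96 to 0.15), Cdh26 (-0.25 without cortex 18, over -0.25 to 0.59) and Pcdh12 (-0.058 without lung 72, over -0.058 to 0.84). The cause was not tested. Genes near the low end of the scale limit what can be detected, and array values carry no detection call.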

Other observations

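The Pcdha genes, left out above because their probe sets name several genes, were read by 6 probe sets. The brightest, which names 14 Pcdha genes, lay at 9.82, 8.10, 9.19 and 9.38 on cortex arrays 72, 22, 19 and 18, against 5.53, 5.14, 5.84 and 4.32 on the lung arrays. Cortex was 15.1-fold higher with no overlap (limma over all probe sets, adjusted p = 0.000605), and a second, dim probe set for the same 14 genes was 2.60-fold higher (adjusted p = 0.00285). Another averaged 7.39 ± 0.49 in cortex and 6.26 ± 0.51 in lung without passing (SD, n = 4 each, adjusted p = 0.0531). The 3 probe sets that name 9 Pcdha genes differed by -0.06 to 0.10 log2 units. Which Pcdha gene gave the signal cannot be told apart, and whether the alpha cluster differed from the 23 other clustered genes was not tested. The brightest probe set was lowest, among cortex arrays, on array 22.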
